A study of Homo sapiens with 5 samples.

Results

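The genes of the mitochondrial protein import machinery were followed in 5 mRNA sequencing libraries of SW620 cells. They were taken from the count table by symbol, as every gene named TIMM or TOMM with a number, together with ROMO1, PAM16, DNAJC15, DNAJC19, GRPEL1 and GRPEL2. This gave 30 genes of the 25343 in the table, of which 6 were small Tims and 7 were channel subunits or their close homologs. SW620 is a human colon carcinoma line, and all libraries came from cells carrying a doxycycline-inducible short hairpin RNA against MUC1 (genotype tet-MUC1shRNA). The 2 groups were pos, with replicates 1 and 3, and neg, with replicates 1, 2 and 3. The labels state that cells received doxycycline or vehicle but do not say which name is which, so the names pos and neg are kept. The hairpin construct, the cell line and the medium with serum and antibiotics were shared by both groups. No doxycycline-treated cells with a control hairpin were analysed here.

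Nearly all mitochondrial proteins are made in the cytosol and must be imported. Precursors are recognised by receptors of the TOM complex in the outer membrane and pass through its channel. Hydrophobic carrier precursors are then escorted across the intermembrane space by the small Tim chaperones to the TIM22 complex, which inserts them into the inner membrane. Precursors with a cleavable presequence go to the TIM23 complex, and an ATP-driven motor built around mitochondrial Hsp70 pulls them into the matrix.

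The libraries held 12190000 and 13471000 counted reads in pos replicates 1 and 3, against 10889000 to 14138000 in the neg libraries (totals to 5 significant digits). MUC1, the target of the hairpin, had 27 and 13 reads in pos replicates 1 and 3, against 176, 252 and 218 in neg replicates 1, 2 and 3. Of 9 colon epithelial markers 6 had at least 10 reads in every library (EPCAM, KRT8, KRT18, CDH1, VIL1 and CDX2). Their summed level over all 9 was 6959 and 14233 CPM in the pos libraries, against 5063 to 6497 CPM in the neg libraries. KRT8 and KRT18 made up most of that sum, and CDH1 ran the other way, with 219 and 108 CPM in pos and 513 to 531 CPM in neg. Of 10 markers of other cells 5 had no read anywhere, among them PTPRC and CD3E. The summed level was 7.28 and 9.49 CPM in the pos libraries, against 19.8 to 21.5 CPM in the neg libraries. COL1A1 alone made up most of this sum, with 6.39 and 6.22 CPM in pos and 15.9 to 16.4 CPM in neg. The part of these marker levels in the results was not tested. The pos libraries differed from each other in how reads were spread over short and long transcripts. For the shortest tested genes (66 to 1738 nt, 2652 genes) pos replicate 1 stood at a median log2 ratio of 0.37 to neg and pos replicate 3 at 1.19, whereas the 2651 longest (from 5684 nt) stood at -0.26 and -1.25. Of the 28 import genes tested, 13 were among those shortest genes. The length-linked difference moves with the groups, and its values stand beside the results below.

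Import genes differed widely in how far pos lay from neg, with 21 of 28 at a positive and 7 at a negative log2 fold change. Of the 28 tested genes 5 rose (TOMM22, TOMM5, TOMM6, TIMM8B and ROMO1) and 0 fell, against 5.06% of all tested genes that rose and 4.13% that fell (9.20% in either direction). A call needed an adjusted p under 0.05 in edgeR (quasi-likelihood test, Benjamini-Hochberg over 13604 genes). Among the shortest tested genes, where 13 of the import genes lie, 15.2% rose. With 28 genes, 0 that fell is near the background. In bulk RNA, fewer cells of a type and less RNA per cell cannot be told apart. The median log2 fold change was 0.91 over the import genes and -0.05 over all tested genes. At an unadjusted p under 0.05 edgeR had 17 import genes higher and 0 lower. The share of all tested genes at that level was not counted. This count, and those at an unadjusted p further below, therefore stand without a background. DESeq2 called 15 higher and 0 lower at an adjusted p of 0.05 (13.2% and 10.0% of all tested genes), and limma-voom called 3 higher and 0 lower (3.62% and 4.31%). Scaled by library size alone, edgeR called 3 higher and 0 lower (1.09% and 3.37%). Both of these sets of 3 were TIMM8B, TOMM22 and TOMM6. Both pos libraries exceeded all neg libraries for 18 import genes and fell short of all of them for 3, against 26.7% and 29.3% of all tested genes. In GRCh38 (GENCODE 44) TOMM22 lies at chr22:38681957-38685421 and ROMO1 at chr20:35699272-35700984, both on the plus strand. TOMM6 lies at chr6:41787662-41789898 on the plus strand and TOMM5 at chr9:37582646-37592604 on the minus strand. TIMM8B lies at chr11:112084800-112086798 on the minus strand. The 2 genes left out by the filter on low counts were TOMM20L and PAM16, with at most 6 and 9 reads in any library. Every other import gene had at least 14 reads in each library.

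The 5 calls rested on all 3 neg libraries. With neg replicate 1, 2 or 3 left out edgeR called 0 of 13443, 13420 and 13474 tested genes, and the adjusted p of the 5 import genes ran from 0.178 to 0.225 at log2 fold changes of 1.19 to 2.98. The number of import genes at an unadjusted p under 0.05 was then 14, 11 and 12. With pos replicate 3 left out, 11 import genes were called higher and 0 lower, against 14.4% and 17.0% of all tested genes. With pos replicate 1 left out, 21 were called higher and 3 lower, against 30.9% and 32.1%. Those fits rest on a lone pos library assumed to vary like neg. Their median log2 fold changes were 0.39 without pos replicate 3 and 1.19 without pos replicate 1.

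**Figure D1:**
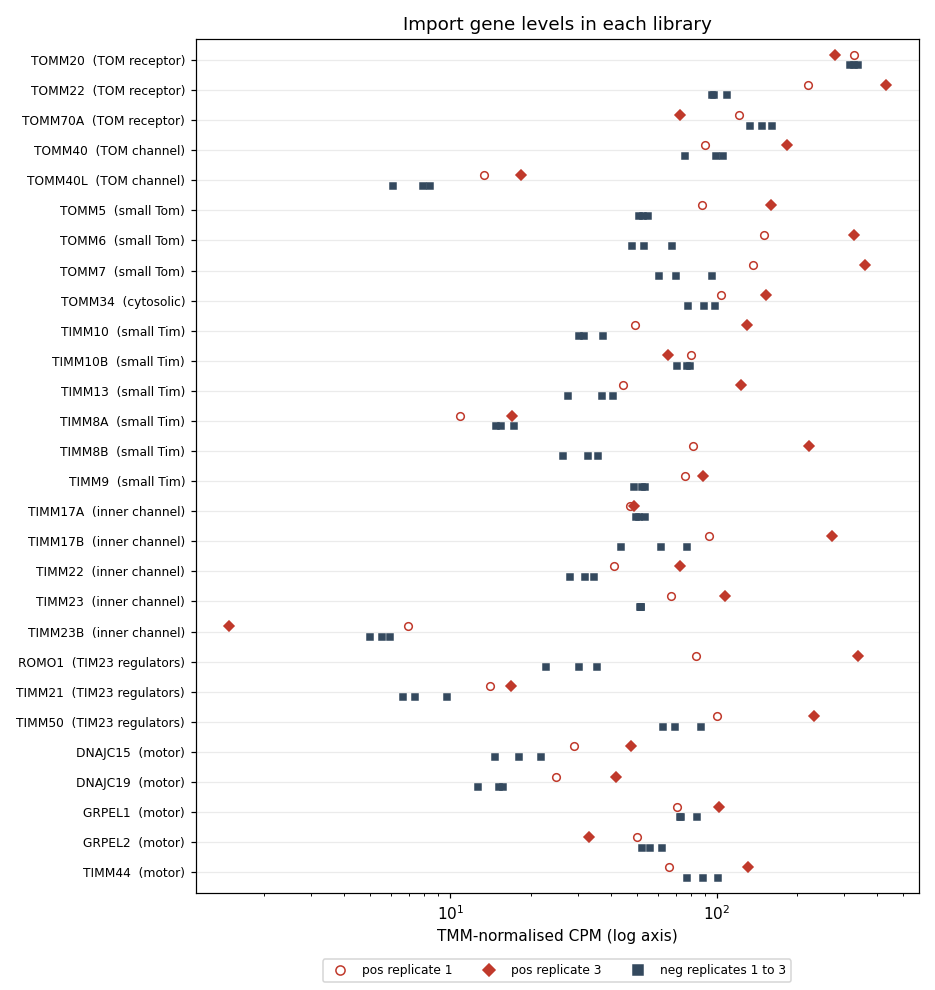
TMM-normalised CPM (counts scaled to library size; log axis) of the 28 tested import genes in each library, grouped by role, with pos libraries drawn above neg libraries in each row. TOMM22, TOMM6, TIMM8B and ROMO1 lie well to the right of their neg points in both pos libraries, and pos replicate 3 lies farther from neg than pos replicate 1 for 26 of the 28 genes.

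Of the import genes that rose, ROMO1, TOMM22 and TOMM6 were matched in the table of RefSeq promoters used here, and each is shown as the 150 bases before the RefSeq transcription start (GRCh38.p14, 5′ to 3′). Windows were matched for 27 of the 30 import genes, and those not matched were GRPEL1, TIMM8B and TOMM5. The printed stretches lie at chr20:35699255-35699404 on the plus strand for ROMO1, chr22:38681807-38681956 on the plus strand for TOMM22 and chr6:41787544-41787693 on the plus strand for TOMM6. Capitals mark the ETS motif CCGGAAG and the SP1 motif GGGCGG, searched on both strands.
ROMO1: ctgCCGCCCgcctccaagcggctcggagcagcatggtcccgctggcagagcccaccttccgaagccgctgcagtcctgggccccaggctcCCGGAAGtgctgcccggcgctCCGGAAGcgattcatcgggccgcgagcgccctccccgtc
TOMM22: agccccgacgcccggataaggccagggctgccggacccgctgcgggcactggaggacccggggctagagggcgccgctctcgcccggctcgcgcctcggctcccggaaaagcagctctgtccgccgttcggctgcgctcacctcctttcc
TOMM6: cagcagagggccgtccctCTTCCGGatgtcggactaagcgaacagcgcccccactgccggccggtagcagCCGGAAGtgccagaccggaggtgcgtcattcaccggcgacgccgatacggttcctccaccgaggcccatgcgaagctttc
The printed stretches of ROMO1 and TOMM6 hold 2 ETS matches each, and that of TOMM22 holds no match to any motif searched. For ROMO1 and TOMM6 the RefSeq and GENCODE starts differ, and the GENCODE starts (35699272 and 41787662) lie within the printed stretches. Both ETS matches of ROMO1 lie past its GENCODE start, inside the gene as GENCODE places it. Those of TOMM6 lie before its GENCODE start. Over the 250 bases before the start, CCGGAAG was found in 11 of 27 import genes with a RefSeq window (40.7%), against 15.8% of 10540 windows of tested genes and 8.82% of all 27305 windows. Import genes with it include some that were not higher in pos, such as TOMM20, TOMM70A, TIMM10B and GRPEL2. GGGCGG was found in 55.6% of the import gene windows and 68.2% of those of tested genes, CCAAT in 29.6% and 34.8%, and TATAAA in 3.7% and 5.32%. None of these motifs contains another. The NRF1 core and ATGGCGGC (YY1) were found in 0 of the 27 windows and in 1.92% and 1.94% of those of tested genes.

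Among the receptors of the TOM complex, TOMM22 rose while TOMM20 and TOMM70A did not pass the test. TOMM22 is the central receptor that also organises the complex. It had 218.9 and 429 CPM in pos replicates 1 and 3, against 109.5, 97.8 and 95.6 CPM in neg replicates 1, 2 and 3. Both pos libraries were above every neg library. The group values were 324 ± 149 CPM in pos and 100.97 ± 7.46 CPM in neg (SD, n = 2 and 3), a log2 fold change of 1.68 (SE 0.31, edgeR adjusted p = 0.0389), which was 1.09 without pos replicate 3 and lost the threshold without any 1 neg library (edgeR adjusted p = 0.178 to 0.217).

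TOMM20, which recognises the presequence, had 327 and 278 CPM in pos, against 316, 326 and 339 CPM in neg. The groups overlapped, and the log2 fold change was -0.11 (SE 0.18, edgeR adjusted p = 0.687). TOMM70A (current symbol TOMM70), the receptor that binds carrier precursors delivered by cytosolic chaperones, had 121 and 72.4 CPM in pos, against 133, 147 and 160.3 CPM in neg. Both pos libraries were below every neg library, at a log2 fold change of -0.60 (SE 0.27) that did not pass (edgeR adjusted p = 0.173). Within a library, the ratio of TOMM22 to TOMM70A reads was 1.81 and 5.93 in pos and 0.822, 0.663 and 0.597 in neg. The ratio of TOMM22 to TOMM20 reads was 0.669 and 1.54 in pos and 0.347, 0.3001 and 0.282 in neg. Counting the canonical transcript length, TOMM20 and TOMM22 had 92.2 ± 10.5 and 159.6 ± 73.2 CPM per kb in pos. In neg they had 99.5 ± 3.53 and 49.7 ± 3.67 CPM per kb, and TOMM22 was below TOMM20 in every neg library. TOMM22 was above TOMM20 in each pos library, narrowly in pos replicate 1 (108 against 99.6 CPM per kb). In pos replicate 3 it was at 211 against 84.8 CPM per kb. None of the CPM per kb values given here was corrected for the length trend of the libraries. At the lengths of TOMM22 and TOMM20 the trend of the log2 ratio to neg was 0.15 and -0.01 in pos replicate 1. In pos replicate 3 it was 0.52 and -0.18. The part of the trend in the order of these 2 genes was not tested. The canonical transcripts are 3283 nt for TOMM20, 2031 nt for TOMM22 and 4100 nt for TOMM70A. GENCODE lists 4 pseudogenes named after TOMM20 and 6 after TOMM22, whose reads may be shared with these genes.

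The channel of the outer membrane did not pass the test in either form. TOMM40, the beta-barrel pore, had 90.2 and 183 CPM in pos, against 106, 99.0 and 76.1 CPM in neg. Only pos replicate 3 lay above neg (log2 fold change 0.54, SE 0.34, edgeR adjusted p = 0.285), and without it the value was -0.08. TOMM40L, a homolog of TOMM40, was far less abundant, with 13.4 and 18.4 CPM in pos, against 7.90, 8.36 and 6.11 CPM in neg. Its groups did not overlap (log2 fold change 1.09, SE 0.26, edgeR adjusted p = 0.0540). TOMM40 reads outnumbered TOMM40L reads 6.76-fold and 9.91-fold in pos and 13.4-fold, 11.8-fold and 12.5-fold in neg. TOMM40L shares exon positions with the antisense gene NR1I3.

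The small Toms, single-span subunits that stabilise the outer membrane channel, were all higher in both pos libraries, and 2 of the 3 passed. Of all tested genes 5.06% were called higher, and of the shortest (66 to 1738 nt) 15.2%. TOMM6 had 150.5 and 327 CPM in pos, against 67.6, 53.4 and 47.9 CPM in neg. Its log2 fold change was 2.08 (SE 0.36, edgeR adjusted p = 0.0381), and 1.39 without pos replicate 3. TOMM5 had 88.2 and 159 CPM in pos, against 55.2, 53.0 and 50.8 CPM in neg. It passed narrowly at a log2 fold change of 1.22 (SE 0.28, edgeR adjusted p = 0.04999), which was 0.71 without pos replicate 3. The call was lost in limma-voom (adjusted p = 0.0585), with library size alone (edgeR adjusted p = 0.0799), with DESeq2 size factors (0.0517) and with a minimum of 5 CPM in 2 libraries (0.0514). TOMM7, which also takes part in holding PINK1 at the outer membrane, had 137 and 359.8 CPM in pos, against 95.5, 70.4 and 60.8 CPM in neg (log2 fold change 1.72, SE 0.43, edgeR adjusted p = 0.0577). In each case both pos libraries exceeded all neg libraries, as they did for 26.7% of all tested genes. Without any 1 neg library TOMM6 and TOMM5 lost the threshold (edgeR adjusted p = 0.178 to 0.225). Per kb of transcript TOMM7 had the highest mean of the 28 tested genes of the list in neg, at 174 ± 41.3 CPM per kb. In pos it had 572 ± 363 CPM per kb, beside 574 ± 490 CPM per kb for ROMO1, and these did not differ beyond their spread. The canonical transcripts of the small Toms are short, at 565, 706 and 434 nt for TOMM6, TOMM5 and TOMM7, and same-strand genes overlap the exons of TOMM6 and TOMM5. TOMM34, a cytosolic cochaperone named with this family, had 104 and 153 CPM in pos, against 98.1, 89.1 and 77.8 CPM in neg (log2 fold change 0.54, SE 0.24, edgeR adjusted p = 0.168).

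The small Tims form hexameric chaperones in the intermembrane space, TIMM9 with TIMM10 and TIMM8 with TIMM13, while TIMM10B sits on the TIM22 complex. Of the 6 genes 1 rose, TIMM8B, where 5.06% of all tested genes and 15.2% of the shortest (66 to 1738 nt) rose. For 4 of 6 the groups did not overlap with pos higher, against 26.7% of all tested genes. TIMM8B had 81.6 and 221 CPM in pos, against 35.7, 32.9 and 26.4 CPM in neg. The group values were 151 ± 98.4 CPM in pos and 31.7 ± 4.77 CPM in neg (SD, n = 2 and 3), a 4.76-fold rise (log2 fold change 2.25, SE 0.42, edgeR adjusted p = 0.0392). Without pos replicate 3 the log2 value was 1.34, and without any 1 neg library the call was lost (edgeR adjusted p = 0.178 to 0.217). TIMM8A, its X-linked paralog and the gene mutated in deafness-dystonia syndrome, did not pass the test, with 10.8 and 17.0 CPM in pos, against 14.8, 15.5 and 17.4 CPM in neg (log2 fold change -0.19, SE 0.26, edgeR adjusted p = 0.616). TIMM8B reads outnumbered TIMM8A reads 7.52-fold and 13.0-fold in pos, against 2.41-fold, 2.13-fold and 1.52-fold in neg. All 5 libraries thus had more TIMM8B than TIMM8A reads, and the ratio was higher in both pos libraries than in any neg library.

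TIMM13, the hexamer partner of the TIMM8 proteins, had 44.4 and 123 CPM in pos, against 40.8, 37.2 and 27.6 CPM in neg. Pos replicate 1 lay just above the neg range and pos replicate 3 far above it (log2 fold change 1.25, SE 0.44, edgeR adjusted p = 0.107). The ratio of TIMM13 to TIMM8B reads was 0.545 and 0.559 in pos and 1.14, 1.13 and 1.05 in neg. The pos libraries agreed on this ratio although they differed widely in both genes. The canonical transcripts are 1664 nt for TIMM13 and 780 nt for TIMM8B. At these lengths the trend of the log2 ratio to neg over all tested genes was 0.23 and 0.54 in pos replicate 1. In pos replicate 3 it was 0.77 and 1.58, so the trend set these genes farther apart there. None of the read ratios given here was corrected for that trend. An exact permutation test of such a ratio, with 2 libraries against 3, cannot go below a one-sided p of 0.1, so the ratios are given as descriptions.

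TIMM10 had 49.2 and 130.1 CPM in pos, against 37.5, 31.7 and 30.4 CPM in neg (log2 fold change 1.43, SE 0.41, edgeR adjusted p = 0.0719). TIMM9 had 76.0 and 88.5 CPM in pos, against 52.4, 49.0 and 53.5 CPM in neg (log2 fold change 0.67, SE 0.18, edgeR adjusted p = 0.0670). Both genes of this hexamer lay above neg in each pos library without passing. The ratio of TIMM10 to TIMM9 reads was 0.648 and 1.47 in pos and 0.716, 0.648 and 0.568 in neg, so only pos replicate 3 stood apart. TIMM10B had 80.1 and 65.4 CPM in pos, against 70.8, 77.4 and 79.6 CPM in neg, with overlapping groups (log2 fold change -0.06, SE 0.19, edgeR adjusted p = 0.834). Per kb of transcript the small Tims in neg ordered as TIMM10 (49.7 ± 5.64 CPM per kb), TIMM9 (41.2 ± 1.89), TIMM8B (40.6 ± 6.11), TIMM10B (27.2 ± 1.64), TIMM13 (21.2 ± 4.09) and TIMM8A (13.1 ± 1.09). TIMM9 and TIMM8B did not differ beyond their spread. In pos TIMM8B had the highest mean, 194 ± 126 CPM per kb, beside 134 ± 85.6 CPM per kb for TIMM10. TIMM8B was above TIMM10 within each pos library, at 105 against 73.6 CPM per kb in pos replicate 1. In pos replicate 3 it was at 283 against 195 CPM per kb. These values used canonical transcript lengths. The canonical length and the median length of coding transcripts are 1252 and 585 nt for TIMM9. They are 2788 and 1798.5 nt for TIMM10B, 668 and 530 nt for TIMM10 and 780 and 792.5 nt for TIMM8B. Both orders can thus change with the length used, and they were not formed with the median coding lengths. Exons of TIMM8B overlap the antisense gene NKAPD1 and those of TIMM9 overlap the antisense TOMM20L, and GENCODE lists pseudogenes of TIMM8A, TIMM8B and TIMM9.

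The inner membrane channel genes did not pass the test, and they include paralogs with fold changes of opposite sign. TIMM17A and TIMM17B are alternative subunits of the TIM23 translocase. TIMM17B had 93.5 and 271 CPM in pos, against 77.3, 61.5 and 43.7 CPM in neg (log2 fold change 1.58, SE 0.47, edgeR adjusted p = 0.0799). TIMM17A had 47.0 and 48.8 CPM in pos, against 49.8, 53.6 and 51.0 CPM in neg (log2 fold change -0.10, SE 0.18, edgeR adjusted p = 0.692). The pos libraries were above neg for TIMM17B and slightly below for TIMM17A, and the ratio of TIMM17B to TIMM17A reads was 1.99 and 5.55 in pos and 1.55, 1.15 and 0.857 in neg. TIMM23, the channel-forming subunit, had 67.3 and 107 CPM in pos, against 51.4, 51.7 and 51.8 CPM in neg (log2 fold change 0.76, SE 0.24, edgeR adjusted p = 0.0908). Neg replicates were almost identical for this gene, and both pos libraries lay above them. TIMM23B, a near-identical copy of TIMM23, had 86 and 14 reads in pos replicates 1 and 3, against 85, 88 and 62 reads in neg. Reads may be split between these copies, and TIMM23B had the opposite sign in each pos library (log2 ratio to neg of 0.34 in pos replicate 1 and -1.79 in pos replicate 3). TIMM22, the carrier insertase, had 41.3 and 72.4 CPM in pos, against 34.6, 31.9 and 28.1 CPM in neg (log2 fold change 0.85, SE 0.28, edgeR adjusted p = 0.0974).

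The small Tims and the channel subunits were set against each other without a test. The small Tims' median log2 fold change was 0.96 over 6 genes, and that of the 7 channel subunits of both membranes was 0.76, a difference of 0.20. Library by library, from medians of the log2 ratio to neg, the small Tims minus the channel subunits came to 0.07 in pos replicate 1 and to 0.24 in pos replicate 3, against -0.02, -0.06 and 0.12 in neg. Pos replicate 1 thus lay within the neg range and pos replicate 3 above it. Without pos replicate 3 the difference was 0.06. Single genes spread far more within each class, from -0.19 (TIMM8A) to 2.25 (TIMM8B) among small Tims and from -0.36 (TIMM23B) to 1.58 (TIMM17B) among channel subunits. Of the channel subunits edgeR called 0, with 4 higher and 0 lower at an unadjusted p under 0.05. DESeq2 called 2 of the 7 higher, against 13.2% of all tested genes.

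The receptor and regulators of the TIM23 complex were higher in both pos libraries, and ROMO1 had the largest fold change of the 28 import genes. ROMO1, the homolog of yeast Mgr2, which seals the lateral gate of the translocase, had 83.3 and 337 CPM in pos, against 35.4, 30.4 and 22.9 CPM in neg. Both pos libraries were above every neg library, and pos replicate 3 was far above pos replicate 1. The group values were 210.1 ± 179 CPM in pos and 29.6 ± 6.28 CPM in neg (SD, n = 2 and 3), a 7.10-fold rise (log2 fold change 2.83, SE 0.57, edgeR adjusted p = 0.0434). The log2 value was 1.47 without pos replicate 3, and the call was lost without any 1 neg library (edgeR adjusted p = 0.178 to 0.217). It was also lost in limma-voom (adjusted p = 0.0566) and with scaling by library size alone (edgeR adjusted p = 0.0518). TIMM50, the receptor that takes over precursors from the TOM complex, had 100.01 and 232 CPM in pos, against 87.1, 69.4 and 62.5 CPM in neg (log2 fold change 1.18, SE 0.38, edgeR adjusted p = 0.0882). TIMM21, which links the translocase to TOM and to the respiratory chain, had 14.1 and 16.9 CPM in pos, against 9.72, 6.66 and 7.39 CPM in neg (log2 fold change 0.96, SE 0.26, edgeR adjusted p = 0.0639). The ratio of ROMO1 to TIMM50 reads was 0.833 and 1.45 in pos and 0.406, 0.438 and 0.366 in neg.

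The import motor subunits split, and 0 of the 5 tested passed in edgeR, with 2 higher and 0 lower at an unadjusted p under 0.05. DESeq2 called 2 of the 5 higher, against 13.2% of all tested genes. Those 2 were the J-proteins. DNAJC19 had 24.8 and 41.9 CPM in pos, against 15.8, 15.3 and 12.7 CPM in neg (log2 fold change 1.19, SE 0.28, edgeR adjusted p = 0.0529). DNAJC15 had 29.0 and 47.4 CPM in pos, against 14.8, 18.04 and 21.9 CPM in neg (log2 fold change 1.07, SE 0.30, edgeR adjusted p = 0.0692). Both J-proteins lay above neg in each pos library, and their read ratio overlapped between groups (1.17 and 1.13 in pos, 0.934, 1.18 and 1.73 in neg). DNAJC19 has 9 annotated pseudogenes, more than any other import gene in the list.

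The nucleotide exchange factors of the motor and its scaffold did not pass the test. GRPEL1 had 71.0 and 102 CPM in pos, against 84.0, 73.4 and 72.7 CPM in neg (log2 fold change 0.18, SE 0.23, edgeR adjusted p = 0.599). GRPEL2 had 50.1 and 33.1 CPM in pos, against 52.2, 56.3 and 62.0 CPM in neg (log2 fold change -0.45, SE 0.25, edgeR adjusted p = 0.236). Both pos libraries were below neg for GRPEL2 and straddled it for GRPEL1. TIMM44, which anchors Hsp70 at the channel exit, had 66.3 and 130.2 CPM in pos, against 101.3, 88.9 and 77.0 CPM in neg (log2 fold change 0.14, SE 0.32, edgeR adjusted p = 0.771). One pos library lay below and the other above all neg libraries. Scaled by library size alone, where the median of all tested genes lay at -0.41 in place of -0.05, GRPEL1 was at -0.25 and TIMM44 at -0.32, both above that median.

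**Figure D2:**
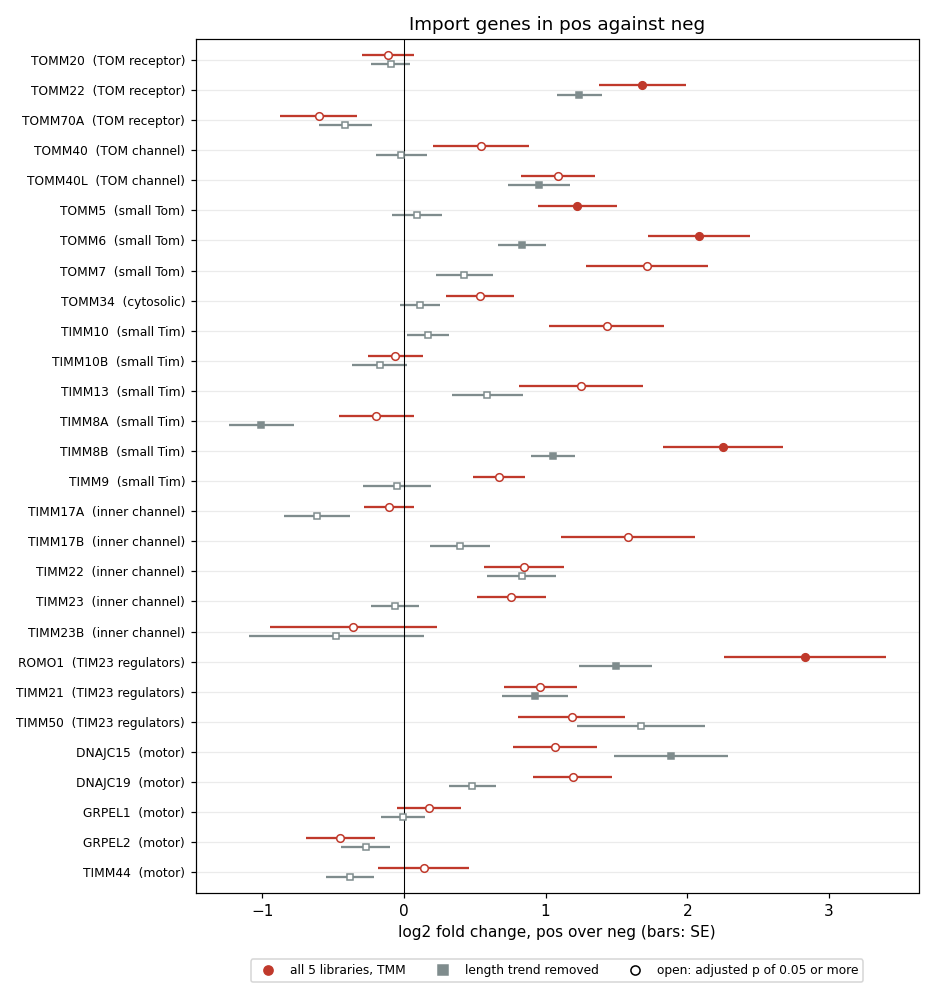
Log2 fold change of pos over neg with its SE for the 28 tested import genes, from the fit on all 5 libraries (circles) and from the fit with each library's length trend removed (squares), with filled symbols where the edgeR adjusted p was under 0.05. ROMO1, TIMM8B, TOMM6 and TOMM22 are filled in both fits, and TIMM8A lies at -0.19 in the first fit and -1.01 in the second.

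Since short transcripts as a class were higher in pos, above all in pos replicate 3, each import gene was set beside the trend of all tested genes at its own canonical transcript length. Over the 28 genes the log2 ratio to neg was lower at greater length, with a Pearson correlation of -0.48 in pos replicate 1 and -0.60 in pos replicate 3 (Spearman -0.42 and -0.57). These describe genes measured in the same libraries, which share that trend. At the 366 nt of ROMO1 the trend was 0.66 and 1.93 in pos replicates 1 and 3, and ROMO1 itself was at 1.51 and 3.53. TIMM8B was at 1.37 and 2.80 where the trend was 0.54 and 1.58, and TOMM6 at 1.43 and 2.55 where it was 0.64 and 1.85. TOMM22, with a transcript of middle length, was at 1.12 and 2.09 where the trend was 0.15 and 0.52. TOMM5 was at 0.73 and 1.58 beside a trend of 0.57 and 1.67, above it in the first and below it in the second. In all, 14 import genes lay above the trend in both pos libraries, 5 lay below it in both (TIMM17A, TIMM44, TOMM70A, TIMM8A and GRPEL2), and 9 lay on different sides. How many of all tested genes lay on 1 side in both libraries was not counted. In pos replicate 1 alone 20 of the 28 import genes lay above the trend, against 6482 of 13256 tested genes with a length. In pos replicate 3 alone the numbers were 17 and 6695.

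**Figure D3:**
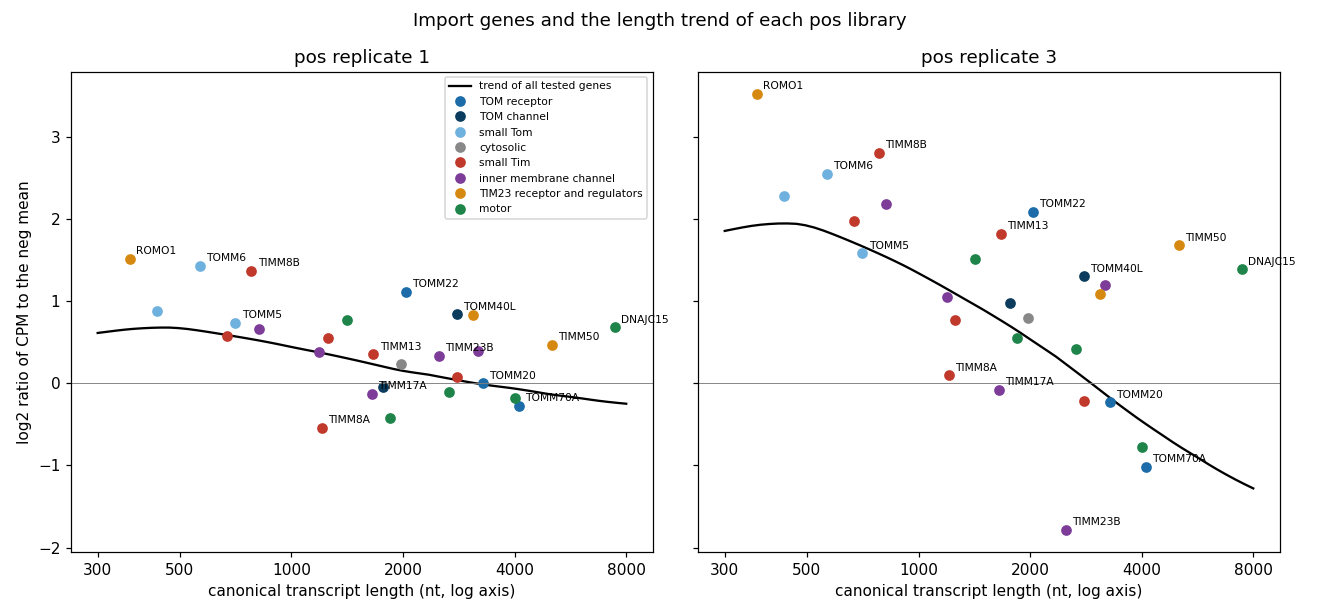
Log2 ratio of CPM to the neg mean against canonical transcript length (log axis) for each import gene, in pos replicate 1 (left) and pos replicate 3 (right), with the lowess trend of all tested genes as a line and colours for roles. ROMO1, TIMM8B, TOMM6 and TOMM22 stand above the line in both libraries, while TIMM8A and TIMM17A stand below it.

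With the trend of log2 CPM on length removed from each library, 7 import genes were higher and 1 lower at an edgeR adjusted p of 0.05, where 7.03% of all tested genes were higher and 7.33% lower. The median of the import genes was 0.14 and that of all tested genes -0.03. TOMM22 (log2 fold change 1.237, SE 0.16), ROMO1 (1.49, SE 0.26), TIMM8B (1.05, SE 0.15) and TOMM6 (0.84, SE 0.17) passed in both fits. TOMM5 did not pass after removal (0.09, edgeR adjusted p = 0.750). TOMM40L (0.95, edgeR adjusted p = 0.0357), TIMM21 (0.92, edgeR adjusted p = 0.0429) and DNAJC15 (1.88, edgeR adjusted p = 0.0298) passed only after removal, and TIMM8A was the 1 lower gene (-1.01, SE 0.23, edgeR adjusted p = 0.0346). The small Tims then had a median of 0.06 and the channel subunits of -0.02. These values depended on the length used. With the median length of each gene's coding transcripts in place of the canonical one, a choice made after the data were seen, the median was 0.71 over the import genes and -0.06 over all tested genes. It was 0.52 over the small Tims and 0.29 over the channel subunits. In that fit 6 import genes were higher and 0 lower, against 5.20% and 5.74% of all tested genes, and TIMM21 and TIMM8A were not among those called. TIMM10 was at 1.02 with that length and 0.17 with the canonical one, TOMM5 at 0.76 (edgeR adjusted p = 0.0518) and 0.09, TIMM17B at 1.02 and 0.40, GRPEL2 at -0.85 and -0.27, TIMM50 at 0.70 and 1.67, and TIMM8A at -0.29 and -1.01. TOMM22 (1.56), ROMO1 (2.40), TIMM8B (1.74) and TOMM6 (1.67) passed with either length.

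**Figure D4:**
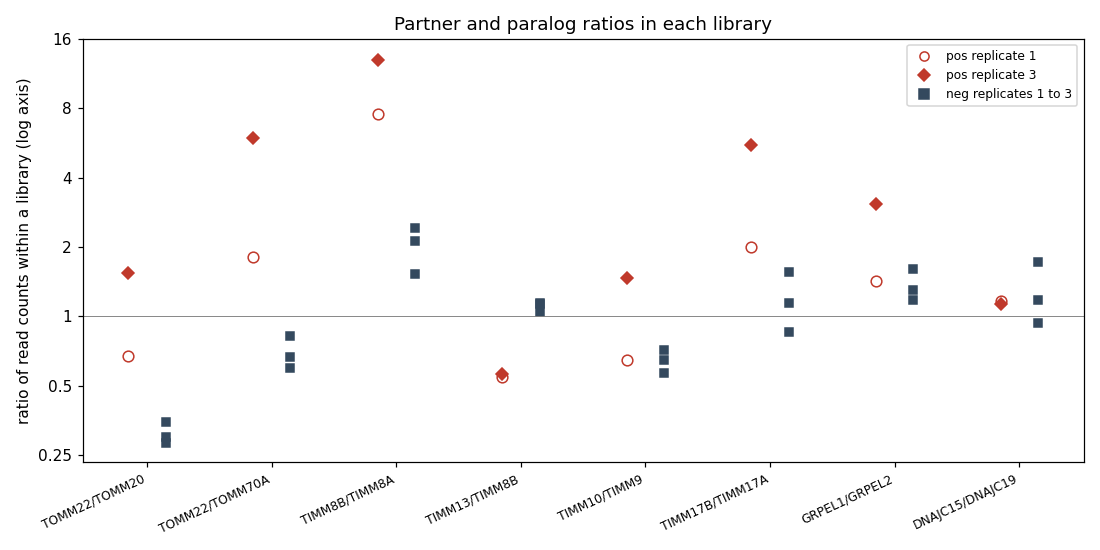
Ratio of read counts of 2 import genes within the same library (log axis), with the pos libraries left of the neg libraries for each pair. TIMM13/TIMM8B is near 0.55 in both pos libraries and near 1.1 in neg, whereas DNAJC15/DNAJC19 overlaps between the groups. The ratios are not corrected for the length trend.

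For comparison, 25 other genes of mitochondrial import and assembly were taken from a list of oxidative folding, sorting, processing and chaperone genes. Of these 4 rose and 1 fell, against 5.06% and 4.13% of all tested genes, with a median log2 fold change of 0.78. Scaled by library size alone, 0 of them were called higher in edgeR (against 1.09% of all tested genes) and 1 lower. The 4 that rose then had adjusted p-values of 0.0643 (IMMP1L), 0.0794 (SAMM50), 0.0913 (IMMP2L) and 0.22 (COX18) in edgeR. The gene that fell was HSPA9, the mitochondrial Hsp70 at the core of the import motor, which had 506 and 409 CPM in pos, against 1108, 1059 and 1063 CPM in neg (log2 fold change -1.236, SE 0.21, edgeR adjusted p = 0.0381). Both pos libraries were below every neg library, and the value was -0.97 with the length trend removed. SAMM50, the beta-barrel assembly channel that inserts TOMM40, rose by 1.14 (SE 0.23, edgeR adjusted p = 0.0441), with 84.0 and 127 CPM in pos, against 49.8, 48.1 and 45.5 CPM in neg. IMMP1L (log2 fold change 1.60) and IMMP2L (1.239), the inner membrane peptidases, and COX18 (0.95), an insertase for a respiratory chain subunit, were the other 3 that rose (edgeR adjusted p = 0.0446 to 0.0457). IMMP1L had 8.90 and 17.9 CPM in pos, against 4.27, 4.15 and 4.82 CPM in neg, and was at 0.99 without pos replicate 3. IMMP2L had 12.8 and 16.9 CPM in pos, against 6.71, 6.92 and 5.14 CPM in neg. COX18 had 43.5 and 36.0 CPM in pos, against 19.6, 21.9 and 20.01 CPM in neg. For these genes too the groups did not overlap. IMMP1L did not pass once the canonical length trend was taken out (0.45, edgeR adjusted p = 0.232), nor in limma-voom (adjusted p = 0.0558). IMMP2L did not pass with the median coding length (0.78, edgeR adjusted p = 0.0658). Without any 1 neg library the calls of these 5 genes were lost as well (edgeR adjusted p = 0.178 to 0.225).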

How the data were processed

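The authors deposited 1 table of raw counts per gene symbol, aligned with STAR per the labels' protocols, from TruSeq stranded mRNA libraries. The submitters' processing notes list CASAVA 1.8.2, STAR 2.5.2b and DESeq2 1.24.0. The build is given both as hg19 and as GRCh38, and the counting program is not given in the sources used here, so reads of overlapping genes, paralogs and pseudogenes cannot be separated. The 92 spike-in rows, at 0 reads, were left out.

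The filterByExpr function (count of at least 10, total of at least 15) left 13604 genes, which were scaled by TMM and tested for pos against neg with edgeR 4.0.16 (glmQLFit and glmQLFTest, two-sided) in R 4.3.3. SE is the log2 fold change over the root of F, and log2 ratios to neg used a prior count of 2. DESeq2 1.42.0 and limma 3.58.1 were alternatives. The length trends removed in the fits were lowess fits (span 0.3) of log2 CPM on log length in each library. The trend values set beside single genes were lowess fits (span 0.3) of the log2 ratio to neg on log length. Lengths were those of canonical GENCODE 44 transcripts (97.4% of tested genes) unless median coding lengths are named. A floor of 3 reads was 0.243 and 0.316 CPM in the pos libraries and 0.189 to 0.241 CPM in the neg libraries.

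Per-library values were given for the tested genes of each role, and among other import genes for those past the threshold. Members, lists, motifs and tests were chosen with earlier results of these data known. Nothing says that replicates of a group came from separate cultures beyond being cultured in triplicate, so p-values measure the spread between these libraries. Protein sequences were not used here.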

Additional observations from a re-analysis of the deposited data

How the results depend on the processing

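The number of genes called in the whole table was 1251, and 3161 by DESeq2, 606 with library size as the only scaling, 87 with the replicate block, 1953 after removal of the length trend and 1 at an adjusted p of 0.01. Leaving out 1 library gave 0 to 8819 genes, and with the length trend also removed 7238 (pos replicate 1 out) and 5020 (pos replicate 3 out). Import genes called higher, 5 in the full fit, numbered 15 by DESeq2, 3 by limma-voom, 3 with library size only, 0 with the replicate block (ROMO1 adjusted p = 0.0567, edgeR) and 0 at an adjusted p of 0.01. Without 1 library they numbered 0 to 21, and with the length trend also removed 14 (pos replicate 1 out) and 8 (pos replicate 3 out). Import genes called lower, 0 in the full fit, numbered 1 after removal of the length trend and 0 without neg replicate 1, 2 or 3. With the length trend removed and either pos library out, import genes were called lower as well as higher. The median log2 fold change was then 0.281 over import genes and -0.0804 over all tested genes (pos replicate 1 out). It was 0.214 and -0.0278 with pos replicate 3 out. Import gene calls in these 2 fits are given without the share of all tested genes. With the replicate block 6 import genes had an unadjusted p under 0.05. The difference of medians between small Tims and channel subunits, 0.202, was 0.0785 after removal of the length trend with canonical lengths and 0.224 with median coding lengths, 0.0633 to 0.271 without 1 library, and -0.20 (pos replicate 1 out) and -0.0832 (pos replicate 3 out) with both changes. The cause was not tested, and where 1 pos library was left out the other was assumed to vary like neg.

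Whether the shared replicate numbers pair the libraries was not settled by these data. Deviations from the group means correlated at -0.44 between neg and pos replicate 1 and -0.45 between neg and pos replicate 3. With only replicates 1 and 3 in pos, their deviations from the pos mean mirror each other. They also carry the length trend of each library, so these correlations cannot decide on pairing.

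Signs turned for genes that had not passed in the full fit. After removal of the length trend these were TIMM23 (-0.0657), TIMM9 (-0.0472), TIMM44 (-0.383), TOMM40 (-0.0175) and GRPEL1 (-0.00596), and with median coding lengths TOMM20 (0.0910) and TIMM44 (-0.376). With library size only they were TIMM44 (-0.323) and GRPEL1 (-0.25). Leaving out 1 library in turn gave ranges that cross 0 for TIMM23B (-1.84 to 0.313), TIMM10B (-0.17 to 0.0491), TIMM44 (-0.453 to 0.595), TOMM40 (-0.0795 to 1.01), GRPEL1 (-0.136 to 0.462) and TIMM8A (-0.576 to 0.144). With the length trend removed as well, leaving out pos replicate 3 turned TIMM23B (0.248), TIMM10B (0.00979), TIMM44 (-0.603), TOMM40 (-0.245) and GRPEL1 (-0.186), and leaving out pos replicate 1 turned TIMM23 (-0.152), TIMM9 (-0.381) and TIMM44 (-0.178).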
